A study of Saccharomyces cerevisiae with 19 samples.

Results

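Enzymes that link pyruvate with ethanol, acetate and acetyl-CoA in budding yeast were followed as ribosome footprints and as mRNA. The 10 genes were taken by name from 2 enzyme families and the route to acetyl-CoA, out of 5758 genes in the deposited count tables. They were the pyruvate decarboxylases PDC1 (YLR044C), PDC5 (YLR134W) and PDC6 (YGR087C), the alcohol dehydrogenases ADH1 (YOL086C), ADH2 (YMR303C), ADH3 (YMR083W), ADH4 (YGL256W) and ADH5 (YBR145W), the aldehyde dehydrogenase ALD6 (YPL061W) and the acetyl-CoA synthetase ACS2 (YLR153C). Of these, 9 had reads in all 19 libraries, and PDC6 had none in 3 of them.

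Pyruvate decarboxylase removes carbon dioxide from pyruvate and leaves acetaldehyde, which alcohol dehydrogenase reduces to ethanol while NADH is turned back into the NAD+ that glycolysis needs. Baker's yeast ferments in this way on glucose even when oxygen is present. The remaining acetaldehyde is oxidized to acetate and activated to acetyl-CoA, a path known as the pyruvate dehydrogenase bypass.

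All libraries came from Saccharomyces cerevisiae BY4741, a haploid laboratory strain labelled wild-type, which is known to lack the LEU2, MET17 and URA3 genes and part of HIS3. Cells in YPD, a rich glucose medium, were taken from an OD600 of 0.02 to 0.4, given the elongation inhibitor cycloheximide for 1 min and collected by filtration, and the lysis buffer held 100 μg/ml of the drug. In ribosome profiling, RNase I removes the mRNA that ribosomes do not cover, and protected fragments of 28 to 32 nt from monosomes are sequenced. The groups differ in how the fragments were made into libraries: Nonrandom, 4N and 4+3N are named for the random bases (N) in the oligonucleotides, and DualLigation is a further preparation. Footprint libraries numbered 3 for DualLigation, 2 for 4N, and 2 standard and 2 low ones each for 4+3N and Nonrandom, while mRNA-seq has 2 libraries for each of the 3 preparations other than DualLigation. No treatment or genotype differs between the groups, what low means is not given in the labels, and no label says that replicates came from separate cultures. The p-values therefore measure only the spread between libraries, which may be technical.

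Counted reads ran from 827353 to 13478946 per library. A gene without reads may still hold up to 3, which is 0.223 to 3.63 CPM (counts per 1000000 counted reads) depending on the library, a floor that covers counting error only. In the 6 standard footprint libraries LEU2 had 1 read in all and URA3 and MET17 had none. HIS3, which the strain lacks only in part, had 4526 reads there, a mean of 80.7 CPM. The receptor gene of a cells, STE2, had a mean of 443 CPM in footprints against 2.31 CPM for STE3, the receptor gene of alpha cells. The table of Nonrandom footprint replicate 1 lists 5559 genes a second time with other counts. The second list was used, since its Pearson r with replicate 2 across genes was 0.997 against 0.959 for the first. The DualLigation libraries stood apart from the other footprints and from each other, with a chi-square per degree of freedom of 105 to 369 between replicates, against 2.04 to 9.52 in the other groups. The tables of the low and DualLigation libraries list genes in another row order than the 12 others, and whether they were made differently was not tested. The 10 genes took 3.38%, 2.39% and 2.02% of the DualLigation reads. The same genes took 4.46% to 4.98% of reads in the 6 standard footprint libraries of the other preparations and 3.93% to 4.62% in the 4 low libraries. In mRNA they took 3.29% to 3.73%, which does not overlap with the standard footprints.

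Each gene has its place in the R64 reference annotation, where all 10 are annotated as protein coding. PDC1 lies on chromosome XII at 232390 to 234081 on the minus strand and PDC5 on the same chromosome at 410723 to 412414 on the plus strand, while PDC6 lies on chromosome VII at 651290 to 652981 on the minus strand. ADH1 lies on chromosome XV at 159548 to 160594 and ADH2 on chromosome XIII at 873291 to 874337, both on the minus strand. ADH3 lies on chromosome XIII at 434788 to 435915, ADH4 on chromosome VII at 15159 to 16307 and ADH5 on chromosome II at 533762 to 534817, all on the plus strand. ALD6 lies on chromosome XVI at 432588 to 434090 on the plus strand and ACS2 on chromosome XII at 445524 to 447575 on the minus strand. The 3 decarboxylase genes are each 1692 bp long, and ADH1 and ADH2 are each 1047 bp long. The PDC genes, and ADH1 with ADH2, are known to be much alike in coding sequence, and how reads that align to more than 1 place were counted is not given in the sources used here. Values of the scarce members PDC5, PDC6 and ADH2 are uncertain for that reason, because a small part of the reads of PDC1 or ADH1 would be large beside their own.

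Levels of different genes were compared as RPKM, reads per kilobase of coding length per 1000000 counted reads. PDC1 and ADH1 stood far above the other members in both assays, and the 10 genes spanned from among the most abundant of the genome to nearly absent. In footprints the mean of 6 libraries was 17604 RPKM for PDC1, the third highest of 5754 genes, and 12276 for ADH1, the ninth highest. ALD6 followed at 1929, ADH3 at 591 and ACS2 at 364. The other members were low, with ADH5 at 16.6, ADH4 at 11.3, PDC5 at 8.02, ADH2 at 3.48 and PDC6 at 0.287. No neighbours in this order overlapped between their 6 libraries.

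In mRNA the order at the top was reversed, with 14317 for ADH1 (the fifth highest gene) and 10762 for PDC1 (the tenth highest). ALD6 came next at 731 RPKM, then ADH3 at 609 and ACS2 at 262. ADH4 ranked above ADH5 in mRNA, at 88.8 against 35.5, and below it in footprints. ADH2 had 30.0, PDC5 had 23.1 and PDC6 had 0.998. The ranges of ADH5 and ADH2 overlapped in mRNA, as did those of ADH2 and PDC5. Within libraries, ADH5 lay above ADH2 in 4 of 6 and ADH2 above PDC5 in 5 of 6. These orders were not tested.

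**Figure D1:**
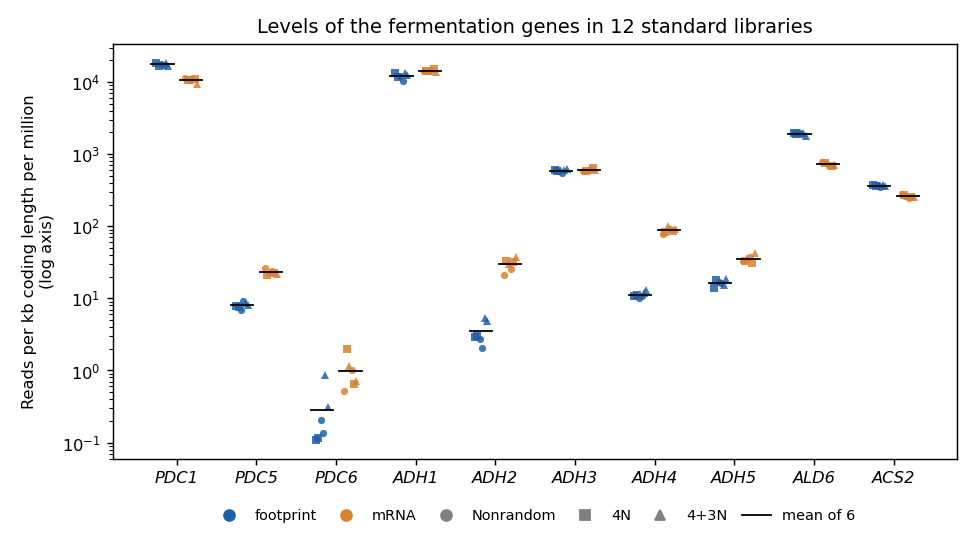
RPKM, reads per kilobase of coding length per 1000000 counted reads (log axis), for the 10 genes in 6 standard footprint libraries (blue) and 6 mRNA libraries (orange); point shapes give the preparation and lines the mean of 6. PDC1 lies above ADH1 in footprints and below it in mRNA, and ADH4 and ADH2 lie far lower in footprints than in mRNA.

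The comparison of footprints with mRNA asks how many ribosome-protected fragments a gene gives for its mRNA. Of the 10 members, 5 were higher in footprints (PDC1, ADH1, ADH3, ALD6 and ACS2, the 5 most abundant) and 5 were lower (PDC5, PDC6, ADH2, ADH4 and ADH5, the 5 scarcest). All passed edgeR's quasi-likelihood test at a Benjamini-Hochberg adjusted p of 0.05, but so did 84.7% of the 5523 genes tested, 40.2% higher and 44.5% lower. The count of members called is therefore near the background, and the sizes of the differences carry the description. The fold changes use TMM normalization, which sets the bulk of genes to no difference. Scaling by library totals alone moved the median of all genes by 0.55 on the log2 scale. With library totals alone, 2221 genes higher and 2456 lower became 956 higher and 3854 lower, and the members became 3 higher and 6 lower. ADH1 then turned to −0.22 (adjusted p 0.000159) and ADH3 was no longer called (−0.04, adjusted p 0.354), while the other 8 kept their direction and call. With the first list of Nonrandom replicate 1, the calls of PDC1 (0.93, adjusted p 0.380), ADH3 (0.34, adjusted p 0.114) and ADH1 (−0.027, adjusted p 0.975) were lost. In bulk cultures, a change in the number of expressing cells and a change per cell cannot be told apart.

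Among the decarboxylases, PDC1, the main isozyme of fermenting cells, had 28191 CPM in the lowest footprint library, a median of 29916 CPM and 31309 CPM in the highest. Its mRNA ranged from 16129 to 19085 CPM, with a median of 18451. Every footprint library lay above every mRNA library. The fitted ratio was 2.40-fold, a log2 difference of 1.26 (SE 0.063, adjusted p 6.2e-13), and PDC1 ranked 291st from the top of the 5523 ratios.

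PDC5 encodes the isozyme that is known to rise when PDC1 is lost. It had 11.7 to 15.7 CPM in footprints (median 13.3) and 35.4 to 44.1 CPM in mRNA (median 38.8). Here every footprint library lay below every mRNA library, with a log2 difference of −0.97 (SE 0.090, adjusted p 6.18e-09).

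PDC6 encodes a minor isozyme, known for expression under sulfur limitation. It had 24 reads in all 6 footprint libraries together and 28 reads in the 6 mRNA libraries. These came to 0.184 to 1.45 CPM in footprints and 0.873 to 3.33 CPM in mRNA, so that the groups overlapped. The log2 difference of −1.60 (SE 0.45, adjusted p 0.00312) was lost when 4N mRNA replicate 1, the library with the highest value, was left out (−1.22, adjusted p 0.0704). Within preparations it ran from −0.09 in 4+3N through −1.65 in Nonrandom to −3.06 in 4N.

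Turning to the alcohol dehydrogenases, ADH1, the cytosolic enzyme that makes ethanol, had 10863 to 13966 CPM in footprints (median 12977) and 14231 to 15979 CPM in mRNA (median 14735). In CPM every footprint library lay below every mRNA library. After TMM normalization the log2 difference was 0.33 (SE 0.066, adjusted p 0.000146), and with library totals alone it was −0.22. Its direction thus rests on the scaling, and against the bulk of genes its ratio was 1.25-fold higher.

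ADH2, the glucose-repressed enzyme that oxidizes ethanol, had 2.16 to 5.65 CPM in footprints (median 3.07) and 21.8 to 39.3 CPM in mRNA (median 32.8). The groups lay far apart. The ratio was 6.13-fold lower in footprints, a log2 difference of −2.62 (SE 0.12, adjusted p 1.54e-13), and ranked 333rd from the bottom. In the fit over all 3 preparations it was the lowest ratio of the 10 genes, close to that of ADH4, while PDC6 was lowest within 4N and ADH4 within 4+3N.

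ADH3, the mitochondrial isozyme, had 624 to 707 CPM in footprints (median 664) and 658 to 722 CPM in mRNA (median 683). The assays overlapped in CPM. Its log2 difference was 0.50 with TMM (SE 0.051, adjusted p 2.12e-08) and −0.04 with library totals alone.

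ADH4, an isozyme of another protein family that is known to be induced by zinc shortage, had 11.7 to 15.1 CPM in footprints (median 12.6) and 89.9 to 117 CPM in mRNA (median 101). Its footprints were 5.38-fold lower, a log2 difference of −2.43 (SE 0.072, adjusted p 3.93e-16). ADH5 had 14.9 to 19.5 CPM in footprints (median 17.6) and 32.6 to 44.9 CPM in mRNA (median 36.5). Neither gene overlapped between assays, and the log2 difference of ADH5 was −0.55 (SE 0.086, adjusted p 7.74e-06).

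On the path to acetyl-CoA, ALD6, the main cytosolic enzyme that oxidizes acetaldehyde to acetate, had 2715 to 3013 CPM in footprints (median 2909) and 1031 to 1168 CPM in mRNA (median 1102). Its ratio of 3.87-fold, a log2 difference of 1.95 (SE 0.057, adjusted p 3.17e-16), was the highest of the 10 and ranked 49th from the top of all genes tested. ACS2, the acetyl-CoA synthetase made on glucose, had 718 to 764 CPM in footprints (median 751) and 512 to 579 CPM in mRNA (median 530). The assays did not overlap, and the log2 difference was 1.02 (SE 0.050, adjusted p 4.72e-13).

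**Figure D2:**
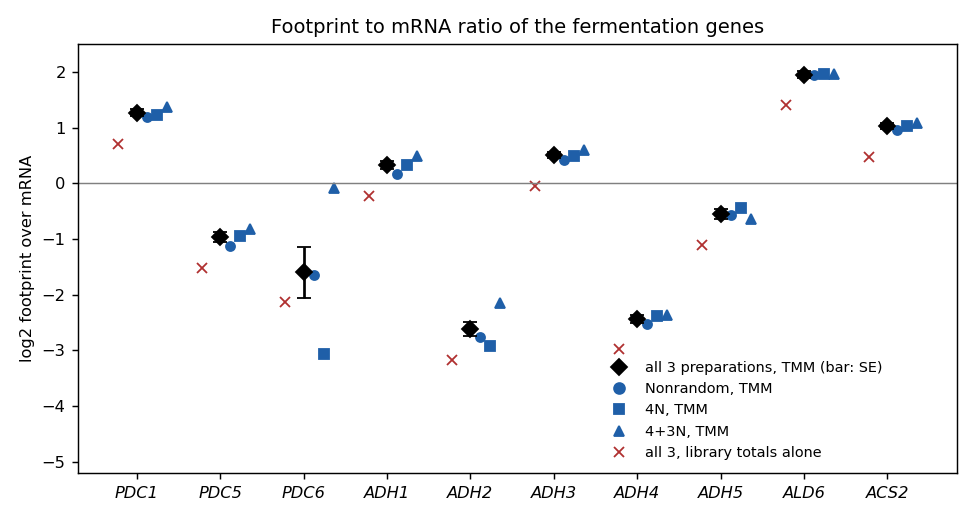
Log2 footprint over mRNA for the 10 genes: black diamonds are the fit over 3 preparations with its SE, blue points the ratio within each preparation, and red crosses the fit scaled by library totals alone. ALD6, PDC1 and ACS2 lie above 0 and PDC5, PDC6, ADH2, ADH4 and ADH5 below 0 under both scalings, while ADH1 and ADH3 cross it.

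The ratio was measured in 3 preparations with 2 libraries per assay each, and every member had the same sign in all of them under TMM. ALD6 was nearly constant, with log2 ratios of 1.94 in Nonrandom, 1.96 in 4N and 1.95 in 4+3N. PDC1 ran from 1.19 in Nonrandom through 1.22 in 4N to 1.37 in 4+3N. ADH1 ran in the same order from 0.17 through 0.33 to 0.49. ADH2 was less low in 4+3N (−2.16) than in Nonrandom (−2.77) or 4N (−2.93). A test of whether the step from Nonrandom to 4N and 4+3N differed between the assays called none of the 10 members. It called 0.0543% of 5523 genes in edgeR, and the members' differences lay between 0.02 and 0.24 on the log2 scale. In that test 237 genes passed an unadjusted p of 0.05 and DESeq2 called 4.

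Ratios of members within a library do not depend on the scaling. The level of PDC1 over ADH1 per coding length was 1.33 to 1.68 in the 6 footprint libraries (median 1.40) and 0.701 to 0.802 in the 6 mRNA libraries (median 0.753). PDC1 thus exceeded ADH1 in every footprint library and fell short of it in every mRNA library. The level of ALD6 over ACS2, the successive steps from acetaldehyde to acetyl-CoA, was 4.995 to 5.43 in footprints and 2.75 to 2.89 in mRNA, again without overlap. These ratios do depend on the list used for Nonrandom footprint replicate 1. In its first list ALD6 over ACS2 was 2.09, below every mRNA library. PDC1 over ADH1 was 1.27 there, above every mRNA library.

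Isozyme shares divide the reads per coding length of each family among its members. PDC1 took nearly all decarboxylase footprints, 99.95% ± 0.0057 (SD, n = 6), and 99.78% ± 0.011 (SD, n = 6) of decarboxylase mRNA. The difference of 0.177 percentage points had a 2-sided exact permutation p of 0.00216, the smallest that 6 against 6 libraries can give (0.00433 adjusted over the 2 shares tested). That test exchanged all libraries freely. It left out the replicate numbers, which were taken to pair libraries within each assay, so the 6 per assay are not independent units. The rest was mostly PDC5, with 0.0456% of footprints and 0.215% of mRNA. PDC6 had 0.00161% and 0.00927%.

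ADH1 took 95.16% ± 0.31 (SD, n = 6) of ADH footprints and 94.93% ± 0.20 (SD, n = 6) of ADH mRNA. The difference of 0.224 points gave an exact permutation p of 0.180, so the shares were not distinguished. Leaving out Nonrandom footprint replicate 2 moved it to 0.317 points with an exact permutation p of 0.0498. ADH3 held most of the rest, 4.60% of footprints and 4.04% of mRNA. In every standard footprint library the ADH3 share lay above that in all mRNA libraries. Among the scarce members ADH4 held 0.0879% of footprints against 0.590% of mRNA, ADH2 0.0267% against 0.200%, and ADH5 0.130% against 0.236%. For each of these 3 the standard footprint libraries lay below all mRNA libraries.

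**Figure D3:**
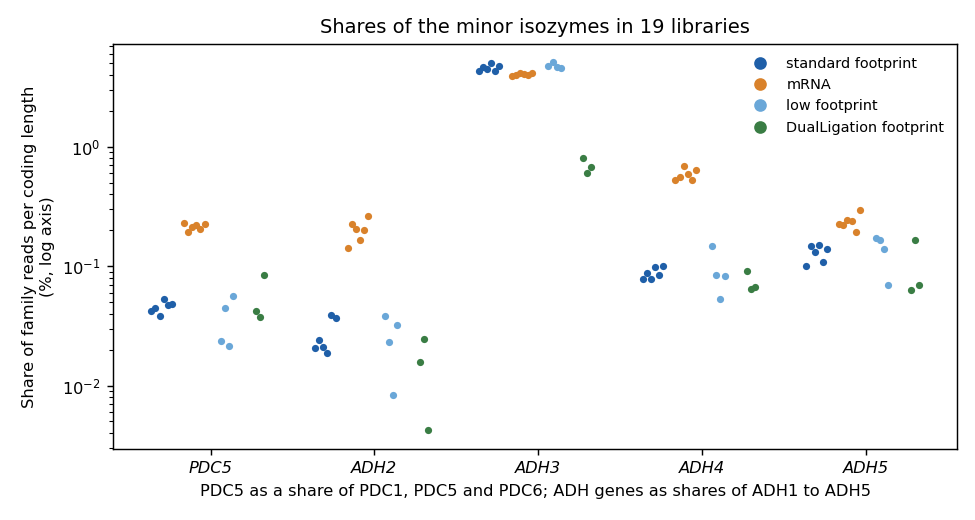
Share of family reads per coding length (percent, log axis) for PDC5 among the PDC genes and for ADH2 to ADH5 among the ADH genes, 1 point per library. PDC5, ADH2, ADH4 and ADH5 hold smaller shares in the 6 standard footprint libraries (dark blue) than in the 6 mRNA libraries (orange), and ADH3 falls below 1% only in the 3 DualLigation libraries (green).

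Genes around this pathway were taken from lists chosen by function. Of 37 such genes, 18 were higher and 17 lower in footprints than in mRNA, with 2 not called. Over all 5523 genes tested, 40.2% were higher and 44.5% lower, so a call by itself sets none of these genes apart. The median log2 difference of the 37 was 0.15 against −0.04 over all genes tested. With library totals alone the split was 9 higher and 22 lower. The counts that follow are from the TMM fit, edgeR with Benjamini-Hochberg adjustment.

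In the glycerol branch, the other route by which yeast reoxidizes NADH, 4 of 4 genes were higher in footprints (2 of 4 with library totals). GPD1, the glycerol-3-phosphate dehydrogenase, had a log2 difference of 1.64 and the phosphatases GPP1 and GPP2 had 0.92 and 0.59. A list for other uses of pyruvate was higher in 9 of 10 genes (4 higher and 4 lower with library totals). It held pyruvate dehydrogenase, the mitochondrial pyruvate carrier and the pyruvate carboxylase genes PYC1 and PYC2. It was led by PDA1 and LPD1 at 0.90 each, subunits of pyruvate dehydrogenase, and by PDX1, a further component of that complex, at 0.81. The single gene lower was MPC2, a subunit of the mitochondrial pyruvate carrier, at −0.74.

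Relatives of the members divided. The mitochondrial aldehyde dehydrogenase ALD4 was higher at 0.80, while the stress-induced cytosolic ALD3 and ALD2 were lower at −3.09 and −0.82 and the mitochondrial ALD5 at −0.39. ACS1, the glucose-repressed acetyl-CoA synthetase, was lower at −2.37. ACH1 was not called at 0.15 (adjusted p 0.0616), but was called higher with a replicate block (0.15, adjusted p 0.0480) and lower with library totals (−0.40, adjusted p 0.000161). Of the other alcohol dehydrogenases, the formaldehyde dehydrogenase SFA1 at 0.98 and ADH6 at 0.54 were higher, and BDH2 at −0.70, ADH7 at −0.40 and BDH1 at −0.24 were lower. The decarboxylase relatives THI3, a regulator of thiamine genes, and ARO10, which acts on aromatic keto acids, were lower at −1.85 and −0.90.

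Both listed genes for acetate esters were lower in footprints than in mRNA, ATF1 at −0.83 and ATF2 at −0.29. Of 8 regulators 2 were higher and 5 lower. MIG1, the repressor active on glucose, was higher at 1.05 and the kinase gene SNF1 at 0.57. CAT8 and ADR1, activators of genes for growth without glucose, were lower at −1.86 and −0.66, and the zinc regulator ZAP1 at −0.99. HAP4, at −0.02, was not called, but was lower with library totals (−0.57, adjusted p 2.65e-05). Of the genes named as higher, ADH6 (−0.0054), GPP2 (0.04) and SNF1 (0.02) were not called with library totals.

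Genes most like PDC1 over the 12 standard libraries were ACT1 (Pearson r of log2(CPM + 1) 0.992), RPS13 (0.990) and SSC1 (0.988), among 4455 genes. For ADH1 they were RPL23B (0.917), HTA1 (0.915) and RPL33B (0.909). The points are 6 footprint and 6 mRNA libraries, so the correlations take in the step between the assays as well as the spread within each. Nearest in level to PDC1, by root mean square difference in log2 RPKM, were PGK1 (0.27), YDR524C-B (0.40) and GPM1 (0.41). Nearest to ADH1 were GPM1 (0.15), YDR524C-B (0.20) and TDH3 (0.25). PGK1 and GPM1 encode glycolytic enzymes, while YDR524C-B was second for both.

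Whether random bases in the oligonucleotides alter the counts was asked by setting 4N and 4+3N against Nonrandom. In footprints none of the 9 members tested was called in edgeR without a replicate block, against 0.19% of 5261 genes (PDC6 was under the filter on low counts). With the replicate number as a block, only ADH1 among the members was called, against 7.55% of genes. Without the block, 408 genes passed an unadjusted p of 0.05, and DESeq2 called 20. PDC1, PDC5, ADH5, ALD6 and ACS2 differed by less than 0.1 on the log2 scale, which is within their standard errors. ADH3 differed by 0.11 (SE 0.064) and ADH4 by 0.19 (SE 0.10).

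The Nonrandom footprint libraries held 12872 and 10863 CPM of ADH1, the 4N libraries 13966 and 12421, and the 4+3N libraries 13916 and 13083. Within each replicate number Nonrandom was lowest. The log2 difference was 0.19 (SE 0.11, adjusted p 0.663), and with the replicate number as a block it was 0.20 (SE 0.030, adjusted p 0.000195). The block called 7.55% of genes. For ADH2 the Nonrandom libraries held 2.83 and 2.16 CPM, the 4N libraries 3.03 and 3.12, and the 4+3N libraries 5.65 and 5.08. The 4+3N pair was the highest, and the difference of 0.69 (SE 0.22, adjusted p 0.566) was not called.

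In mRNA, again none of 9 members was called, against 0.222% of 5415 genes in edgeR, with 224 genes at an unadjusted p of 0.05 and 13 called by DESeq2. ADH2 mRNA stood at 21.8 and 27.2 CPM with Nonrandom, at 34.8 and 33.7 with 4N, and at 31.8 and 39.3 with 4+3N. Nonrandom held the lowest pair here too, with a log2 difference of 0.47 (SE 0.16, adjusted p 0.696). PDC5 differed by −0.21 (SE 0.13), and the other 7 by less than 0.1.

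The low libraries of Nonrandom and 4+3N were set against the standard libraries of the same preparations. None of 9 members was called, against 2.44% of 5174 genes in edgeR, with 776 genes at an unadjusted p of 0.05 and 135 called by DESeq2. PDC1 had 25923 and 24555 CPM in Nonrandom low and 28150 and 27262 CPM in 4+3N low, all below the lowest standard library of these preparations. Its log2 difference was −0.08 with TMM (SE 0.062, adjusted p 0.587) and −0.17 with library totals alone (adjusted p 0.00982), where it was the 1 member called. ADH1 ranged from 10693 to 13807 CPM and ALD6 from 2525 to 2899 CPM, overlapping with the standard libraries. With TMM, ADH3 differed by 0.11 on the log2 scale (SE 0.063, adjusted p 0.444). ADH1, ADH2, ADH4, ADH5, ALD6 and ACS2 differed by less than 0.1.

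Counts of the scarce members were small in the low libraries. PDC5 had 6.16, 10.9, 6.04 and 15.2 CPM, from 64 reads in all, with a log2 difference of −0.35 (SE 0.24, adjusted p 0.535). PDC6 had 3 reads in Nonrandom low replicate 2 and none in the other 3, whose floors of 1.85, 3.63 and 2.28 CPM lie above its levels in the standard footprint libraries. A difference in PDC6 was not detectable at this depth. The low effect was also compared between the 2 preparations. No member differed, against 0.232% of genes in edgeR (261 at an unadjusted p of 0.05, DESeq2 16), with member values from −1.12 to 0.35.

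DualLigation was the preparation that moved the members most. Against the 6 standard footprint libraries of Nonrandom, 4N and 4+3N, 2 of 9 members were higher (ADH1 and ALD6) and 3 lower (PDC1, PDC5 and ADH3) in edgeR with TMM. Of 5300 genes 65.7% were called, 33.1% higher and 32.6% lower, so a call by itself sets no member apart. Scaling by library totals moved the median of all genes by 0.665. It turned 1753 genes higher and 1727 lower into 916 higher and 2918 lower, and left no member higher and 4 lower. With the first list of Nonrandom replicate 1, PDC1 (−0.85, adjusted p 0.497), ADH1 (1.08, adjusted p 0.298) and ALD6 (1.15, adjusted p 0.0785) were not called.

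PDC1 had 11718, 7253 and 6482 CPM in DualLigation, all far below the other preparations. The log2 difference was −1.18 (SE 0.16, adjusted p 0.000264) and −1.81 with library totals. ADH3 had 154, 82.5 and 74.5 CPM, against at least 624 CPM in each standard footprint library. It fell by 2.06 on the log2 scale (SE 0.17, adjusted p 2.56e-05), ranking 232nd from the bottom of 5300 genes. PDC5 had 4.90, 2.75 and 5.52 CPM and fell by 0.95 (SE 0.26, adjusted p 0.0109).

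ADH1 had 17658, 12688 and 10166 CPM, on both sides of the standard libraries. Its TMM difference of 0.72 (SE 0.14, adjusted p 0.00234) became 0.07 with library totals (adjusted p 0.734). ALD6 had 3514, 3410 and 3088 CPM, each above the highest standard library. Its difference was 0.88 with TMM (SE 0.12, adjusted p 0.000264) and 0.20 with library totals (adjusted p 0.152).

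The other 4 tested members were not called, and PDC6 was under the filter on low counts. ACS2 had 688, 462 and 364 CPM and a log2 difference of 0.07 (SE 0.13), which turned to −0.57 and was called with library totals (adjusted p 0.0285) and was −0.060 without DualLigation replicate 1. ADH4 had 17.7, 8.98 and 7.60 CPM, with a difference of 0.43 (adjusted p 0.0895) that passed without DualLigation replicate 3 (0.58, adjusted p 0.0193) and was −0.20 with library totals. ADH5 had 11.4, 21.4 and 7.25 CPM and ADH2 had 2.82, 3.12 and 0.432 CPM. Their differences of 0.32 (SE 0.32) and −0.06 (SE 0.50) were not called, and that of ADH5 turned to −0.31 without DualLigation replicate 2 and to −0.38 with library totals.

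Within DualLigation libraries the level of PDC1 over ADH1 was 0.411, 0.354 and 0.395, under the footprints of every other preparation, low libraries (1.25 to 1.42) included. It also lay under the mRNA libraries. ALD6 over ACS2 rose to 6.97, 10.1 and 11.6. The share of ADH3 among ADH footprints was 0.692% ± 0.10 (SD, n = 3) and that of ADH1 99.12% ± 0.082 (SD, n = 3). These ratios and shares are descriptions and were not tested.

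**Figure D4:**
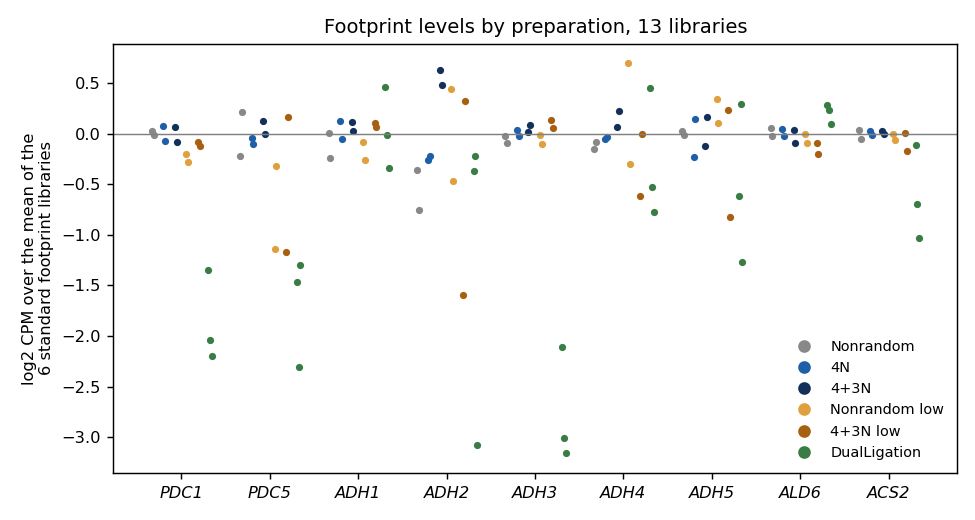
Log2 CPM of 9 genes in each of 13 footprint libraries over the mean of the 6 standard libraries of Nonrandom, 4N and 4+3N; colours give the preparation. The low libraries stay near the standard ones for the abundant genes, and the 3 DualLigation libraries lie below all others for PDC1, PDC5 and ADH3 and above all others for ALD6.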

How the data were processed

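Reads were counted per gene by the authors, and the deposited tables hold whole-number read counts, with genes without reads left out (taken as 0). The submitters' processing notes name the sacCer3 genome, Bowtie 1.0.0 and CASAVA 1.8, with no parameters. Gene assignment, strand and reads that align to several places are not given in the sources used here. Of 5758 genes 5754 matched the R64 annotation, which gave names, coordinates and coding lengths. No sequences were at hand, so none are shown.

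Counts were filtered with filterByExpr, scaled by TMM and tested in edgeR 4.0.16 (R 4.3.3) by quasi-likelihood F tests, 2-sided, with Benjamini-Hochberg adjustment over all genes tested and a threshold of 0.05. SEs are the log2 difference over the square root of F. Other settings were DESeq2 1.42.0, its size factors, no filter, library totals alone (chosen after seeing the data), each library left out in turn, the first list of Nonrandom replicate 1, DualLigation in the fit, and a replicate block. Isozyme shares were compared by exact permutation in Python 3.11.15. The tests were checked on simulated counts. None of the replicates agreed within sampling noise.

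Residuals of same-numbered libraries correlated at 0.418 to 0.581 among footprints of Nonrandom, 4N and 4+3N (3 of 3 pairs of groups above 0.1) and at 0.171 to 0.381 in mRNA (3 of 3), so the numbers were taken to pair these libraries. The main tests leave this pairing out, and only the fits with a replicate block use it. Over the 4 groups of the low comparison 4 of 6 pairs lay above 0.1, between assays 5 of 9, and with DualLigation 0 of 3, which were not treated as paired. A 4+3N footprint library titled replicate 2 carries replicate 1 among its characteristics. The title was followed, and every value that uses the replicate number rests on that choice.

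All 10 members are named in footprints against mRNA, and in other comparisons some are given only as counts or ranges. Other genes are those of lists chosen by function that passed in footprints against mRNA (at most 3 per list and direction, by size, with at least 5 CPM), and the 3 genes most like PDC1 and ADH1 by each measure. ACH1 and HAP4 are named as the 2 that did not pass. Members and lists were chosen with earlier results of these data known.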

Additional observations from a re-analysis of the deposited data

Results flagged for a closer look

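The first of the 2 lists in the table of Nonrandom footprint replicate 1 holds 3520161 reads and was in none of the main comparisons. In it 5 members stood above the highest CPM of the 6 standard footprint libraries, but not in reads. ACS2 had 929 CPM against at most 764, ADH5 had 52.3 against 19.5, and PDC5 had 36.9 against 15.7. ADH4 had 36.1 CPM against 15.1 and ADH2 had 8.81 against 5.65. None of the 10 members had more reads in the first list than in the second, whose total was 11656814. First and second list held 130 and 136 reads of PDC5, 127 and 136 of ADH4, and 31 and 33 of ADH2. For ADH5 they held 184 and 208, for ACS2 3271 and 8901, and for PDC1 12400 and 353892. The main isozymes were low in the first list, PDC1 at 3523 CPM and ADH1 at 1714 CPM. There ADH1 held 71.6% of ADH reads per coding length and ADH3 24.5%. What the first list holds is not given in the sources used here, and the cause was not tested.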

How the results depend on the processing

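Over all members and settings, 563 of 652 values kept their direction and call, 8 lost the call, 4 gained it in the same direction and 77 changed sign. Of the 77, 71 had a difference under 0.1 on the log2 scale, and 2 were called with the new sign (ADH1 between assays and ACS2 in DualLigation, both with library totals). Results under 0.1 that were called under no setting (18, outside DualLigation) are not given singly. With library totals alone, 3 members were higher in footprints than in mRNA, with ADH1 at −0.22 and ADH3 at −0.045, 1 member was lower in the low libraries, and 0 were higher in DualLigation, where ADH4 turned to −0.20, ADH5 to −0.38 and ACS2 to −0.57. With the first list of Nonrandom replicate 1 in place of the second, 2 members were higher in footprints than in mRNA and 0 in DualLigation, and ADH1 stood at −0.027 between assays (adjusted p 0.975) and PDC1 in the low libraries at 0.40. With it the PDC1 share differed by 0.00499 points (exact permutation p of 1) and the ADH1 share by −3.72 points (exact permutation p 0.864). Leaving out 1 library moved ADH1's share difference between 0.159 and 0.317 points and, in DualLigation, ADH5 between −0.31 and 0.61 (lowest without DualLigation replicate 2), ACS2 between −0.060 and 0.20 (lowest without replicate 1) and ADH2 between −0.67 and 0.42 (0.017 without Nonrandom replicate 1). Causes were not tested beyond what the construction of each setting shows.

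The replicate block called 1 member (ADH1) in 4N and 4+3N against Nonrandom footprints and changed no other member's call in a paired comparison. Where libraries were not taken as paired, it called ADH4 in DualLigation (0.57, adjusted p 0.0267), turned ADH2 there to 0.43 and left the exact permutation p of the shares at 0.005 for PDC1 and 0.105 for ADH1. All-gene counts in the 4N and 4+3N footprint comparison were 10 higher and 0 lower, 250 and 147 with the block, 20 higher in DESeq2 and 2 with DualLigation in the fit. Low libraries gave 94 higher and 32 lower, 241 and 135 with the block, 59 and 148 with library totals, 54 lower without a filter, and 28 and 0 with the first list. Leaving out 1 library there gave as few as 43 higher (without 4+3N low replicate 1) and 6 to 58 lower. The difference of the low effect between preparations went from 1 higher and 11 lower to 35 higher with the block.

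Depth limits PDC6 everywhere and PDC5, ADH2, ADH4 and ADH5 in the low libraries. Reads shared between PDC1 and PDC5 or ADH1 and ADH2 could not be examined.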
